A study of Rattus norvegicus with 6 samples.

Results

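The 10 imprinted growth genes Mest, Peg3, Sgce, Ndn, Plagl1, Cdkn1c, Grb10, Igf2r, H19 and Meg3 were followed in rat Schwann cells, the glia of peripheral nerves, after a short stimulation with soluble Neuregulin1β1 (NRG1). They were taken by symbol from the 17327 genes counted in each sample, and 9 of the 10 were listed under that symbol. Meg3 was listed under RGD1566401, which RefSeq gives as an older name of Meg3 on a later assembly than the one used for counting, so the Meg3 values assume that both names mean the same transcript. The cells came from sciatic nerves of adult female Wistar rats. They were grown with serum, recombinant NRG1β1 and forskolin, a compound that raises cAMP. Both groups were then starved overnight with less serum, with forskolin and without NRG1β1, so that the cells had met NRG1β1 before the stimulation. The 3 NRG1 samples were given 10 nM recombinant NRG1β1 for 6 h, and the 3 mock samples the same volume of PBS with bovine serum albumin. Each of 3 independent cell preparations, called cultures 1, 2 and 3 here, gave 1 sample of each group. Bulk poly(A) RNA was sequenced, so that fewer cells of a type and less RNA per cell cannot be told apart.

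An imprinted gene is transcribed mainly from the copy inherited from one parent, and the copies differ in DNA methylation at a control region, a difference set in the egg or sperm. In mouse, Mest, Peg3, Sgce, Ndn and Plagl1 are expressed mainly from the paternal copy, and Cdkn1c, Grb10, Igf2r, H19 and Meg3 mainly from the maternal copy in most tissues. Many of these genes regulate fetal and postnatal growth and are turned down as tissues mature. The counts do not separate the parental copies.

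The depth was lowest in mock sample 2, with 6821590 counts, and highest in NRG1 sample 3, with 15475018. Levels are given as CPM, counts scaled by TMM-adjusted library size, and the floor of 3 counts stood at 0.19 to 0.44 CPM. The Schwann cell genes Sox10 and Erbb3, a transcription factor of the lineage and an NRG1 receptor, were detected in all 6 samples. Sox10 was at 396 and 477 CPM in the mock and NRG1 samples of culture 1, and at 1063 to 1258 CPM in the other 4 samples. All 10 genes of a fibroblast marker list were in the files, and the summed level of the list was 71286 CPM in the mock and 72364 CPM in the NRG1 sample of culture 1, against 15310 to 24101 CPM in the other 4 samples. Of these markers, the matrix genes Dcn and Lum and the surface protein gene Thy1 were at 0 counts in cultures 2 and 3. In culture 1 Dcn had 4574 counts in mock and 3203 in NRG1. Other markers of the list stayed high in cultures 2 and 3, with Col1a1 at 13413 to 21494 CPM and Postn at 1238 to 2148 CPM. Culture 1 thus stood apart in both groups, and the values without it are given where they change a call.

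Of the 10 genes, 7 passed the filter on low counts, and in edgeR's quasi-likelihood test with the culture as a block 2 of the 7 passed an adjusted p of at most 0.01. Both of them, Mest and Sgce, fell with NRG1, and none of the 7 rose. Among all 9740 genes tested, 5.51% fell, 6.31% rose and 11.8% passed in either direction at this threshold. Only Mest also changed by more than 2-fold, as did 3.47% of all genes tested. The median log2 fold change of the 7 genes was -0.53, beside -0.03 over all genes tested. A list of 10 Schwann cell markers, all of them tested, had a median of -0.49, with 8 of the 10 below 0 and 5 that fell. The fitted value was below 0 for each of the 7, as it was for 5144 of all 9740 genes tested. It was close to 0 for Grb10 and Igf2r, whose sign turned when culture 2 was left out. Meg3 is not among the 7, and its value in a fit without the filter was above 0. By the allele expressed in mouse, 4 of the 5 paternally expressed genes were tested and 2 fell, while 3 of the 5 maternally expressed genes were tested and none passed. With 4 and 3 tested genes, the classes were described and not compared by a test.

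**Figure D1:**
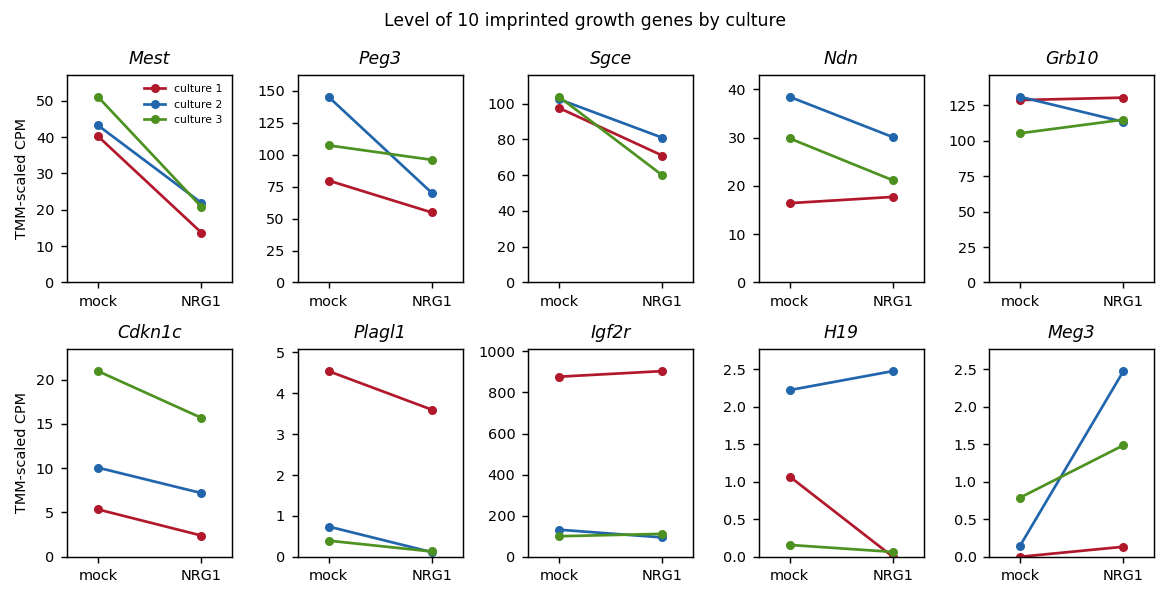
Level of the 10 genes in TMM-scaled CPM (vertical axes, linear, starting at 0) in mock and NRG1 samples, with 1 line per culture joining the samples of a pair. Mest and Sgce were lower in every NRG1 sample than in every mock sample, and Igf2r and Plagl1 were highest in both samples of culture 1.

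Mest, which encodes an α/β-hydrolase fold protein of the endoplasmic reticulum and is highly expressed in growing mesoderm, changed most of the 7. It was counted at 40.2, 43.2 and 51.1 CPM in mock samples 1, 2 and 3, and at 13.7, 21.9 and 20.9 CPM in the corresponding NRG1 samples. All 3 NRG1 samples lay below all 3 mock samples, a separation in this direction that 9.94% of all genes tested showed. From a mock mean of 44.8 ± 5.6 CPM (SD, n = 3) it fell to an NRG1 mean of 18.8 ± 4.4 CPM (SD, n = 3), which is 2.40-fold lower (log2 fold change -1.26, standard error (SE) 0.15, adjusted p = 4.61e-05). By p-value Mest was at position 91 of the 9740 genes. The log2 ratios within cultures 1, 2 and 3 were -1.54, -0.97 and -1.28. In the 9 alternatives that kept the block, the log2 fold change lay between -1.40 and -1.03 and every one passed, whereas without the replicate block the adjusted p was 0.163. Copg2, the next named gene after Mest in RefSeq, encodes a subunit of the COPI vesicle coat. Its mean was 135.9 ± 18.6 CPM (SD, n = 3) in the mock group, against 120.9 ± 9.9 CPM (SD, n = 3) with NRG1. It did not pass, with a log2 fold change of -0.17 (95% interval -0.41 to 0.08).

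Sgce encodes ε-sarcoglycan, a membrane protein of dystrophin-associated complexes, which Schwann cells also carry. Its level was 97.5, 102 and 104 CPM in mock samples 1, 2 and 3 and 70.9, 80.9 and 59.9 CPM in NRG1 samples. The mock samples lay within a few CPM of each other, and no NRG1 sample reached them. Sgce fell 1.45-fold (log2 fold change -0.53, SE 0.13, adjusted p = 0.00726). The call stood close to the threshold. Leaving out culture 1 gave an adjusted p of 0.0122 and leaving out culture 3 one of 0.164, DESeq2 with the block gave 0.0114, and without the replicate block it was 0.222. In all of these the direction was down.

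The promoter windows of Mest and Sgce are shown because these were the members that fell. RefSeq gives windows on the GRCr8 assembly, from 250 bases before to 50 after the start, for 8 of the 10 genes, and CpG dinucleotides, the sites of DNA methylation, are in capitals. Mest lies at chr4:60321564-60321863 on the plus strand and Sgce at chr4:33808739-33809038 on the minus strand, and both are written 5′ to 3′.
Mest: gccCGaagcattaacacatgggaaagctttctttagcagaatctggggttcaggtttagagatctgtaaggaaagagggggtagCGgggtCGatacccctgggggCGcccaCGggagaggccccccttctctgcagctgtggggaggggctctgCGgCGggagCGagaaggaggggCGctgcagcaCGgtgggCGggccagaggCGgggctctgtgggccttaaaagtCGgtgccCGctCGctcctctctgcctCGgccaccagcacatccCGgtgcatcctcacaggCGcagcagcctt
Sgce: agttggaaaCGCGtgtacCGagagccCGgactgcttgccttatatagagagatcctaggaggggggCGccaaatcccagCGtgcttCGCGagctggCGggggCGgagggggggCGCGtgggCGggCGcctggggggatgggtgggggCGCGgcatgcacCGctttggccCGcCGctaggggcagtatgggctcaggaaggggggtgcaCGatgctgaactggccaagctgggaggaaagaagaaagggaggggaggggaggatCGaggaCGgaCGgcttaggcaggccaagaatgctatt
The Mest window held 18 CpGs and the Sgce window 23, against a median of 7 over 33469 promoter windows. Among the 8 genes the number ran from 13 in Meg3 to 44 in Grb10, so that neither Mest nor Sgce was at an end of the range. Peg10, which faces Sgce from the other side, begins inside this window in RefSeq, and 118 bases separate both genes as annotated. The start used for the Sgce window lies 238 bases from that of Peg10. Part of the window before that start therefore lies within the annotated Sgce gene. Peg10 was not among the genes counted. Both strands were searched for the cAMP response element TGACGTCA, which was found once in the windows of Peg3 and Meg3, in none of the other 6 and in 1.83% of all windows. The EGR site GCGGGGGCG occurred once in the Sgce window, in none of the other 7 and in 2.73% of all windows. The half-site TGACG of the cAMP response element was counted 2 times each in Peg3, Igf2r and Meg3, and occurred in 21.2% of all windows. In Peg3 and Meg3 both matches lie inside the full element, which reads the same on either strand, so they add no further site. In Igf2r the 2 matches lie apart, and its window holds no full element. The FoxO site TGTTTAC and the YY1 site AAGATGGCG were found in none of the 8 windows, and in 3.78% and 1.73% of all windows. These matches are descriptions of the letters in the windows.

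Peg3, Ndn and Plagl1 are the other paternally expressed members. Peg3, a zinc finger protein linked to growth and cell death, was at 79.8, 145 and 107 CPM in mock samples and at 54.8, 70.1 and 96.0 CPM in NRG1 samples. It was lower with NRG1 in each of the 3 pairs, but the groups overlapped because NRG1 sample 3 was above mock sample 1. The log2 fold change of -0.58 (SE 0.15) had an adjusted p of 0.0133, over the threshold. It came under it without culture 1 (adjusted p = 0.00847), without culture 3 (0.00307) and without the filter on low counts (0.00036), and without culture 2 it was 0.0795 at a log2 fold change of -0.33. In RefSeq Apeg3 overlaps Peg3, and Apeg3 was at 0 counts in all 6 samples. Because the strand setting of the counting is not known, this does not show whether Apeg3 was transcribed.

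Ndn encodes necdin, a MAGE family protein that restrains proliferation and is abundant in neurons. It was at 16.4, 38.5 and 29.9 CPM in mock and 17.7, 30.1 and 21.2 CPM in NRG1 samples. The level was lower with NRG1 in cultures 2 and 3 but not in culture 1, and the log2 fold change was -0.27 (95% interval -0.60 to 0.05, adjusted p = 0.213). Plagl1, a zinc finger transcription factor that slows the cell cycle and regulates other imprinted genes, did not pass the filter. It had 34, 5 and 5 counts in mock and 27, 1 and 2 counts in NRG1 samples, so that most of its counts came from culture 1. Each pair was lower with NRG1, but cultures 2 and 3 were near the floor, and a fit without the filter gave an adjusted p of 0.364.

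**Figure D2:**
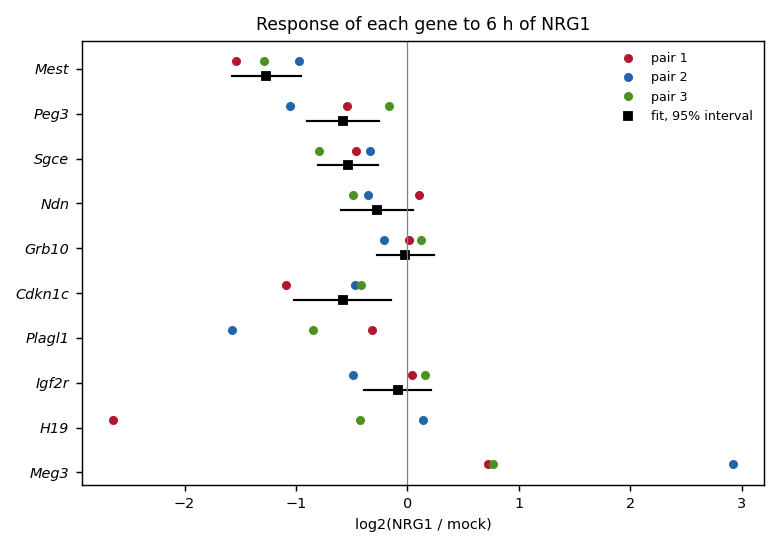
Log2 ratio of NRG1 to mock for each of the 10 genes (horizontal axis), with coloured points for the 3 pairs and, for the 7 tested genes, a black square for the fitted log2 fold change with its 95% interval. The interval of Mest runs from -1.58 to -0.95, and those of Grb10, Igf2r and Ndn include 0.

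Of the maternally expressed members, Cdkn1c encodes p57, an inhibitor of cyclin-dependent kinases. It was at 5.34, 10.1 and 21.0 CPM in mock and 2.40, 7.19 and 15.7 CPM in NRG1 samples. Every NRG1 sample was lower than the mock sample of its own culture, while the cultures differed among themselves by more than that. The log2 fold change was -0.58 (SE 0.20, adjusted p = 0.0508), and none of the alternatives brought it under 0.01. Its relatives Cdkn1a (p21) and Cdkn1b (p27) had log2 fold changes of -0.45 (adjusted p = 0.0248) and -0.32 (adjusted p = 0.0725), and did not pass either.

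Grb10, an adaptor that binds insulin and IGF receptors and dampens their signal, was at 129, 131 and 105 CPM in mock and 130.4, 113 and 115 CPM in NRG1 samples. The samples of both groups lay in the same range. The log2 fold change was -0.02 with a 95% interval of -0.28 to 0.24, which excludes a 2-fold change in either direction. Among its relatives, Grb7 did not pass, and Grb14 was filtered out with 10, 19 and 7 counts in mock and 3, 1 and 4 counts in NRG1 samples.

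Igf2r, the receptor that carries IGF2 and mannose-6-phosphate tagged enzymes to the lysosome, was at 877, 132 and 99.9 CPM in mock samples 1, 2 and 3 and at 904, 94.1 and 112 CPM in NRG1 samples. Both samples of culture 1 were far above the other 4. Within cultures 1, 2 and 3 the log2 ratios were 0.04, -0.48 and 0.16. The log2 fold change was -0.09 (95% interval -0.39 to 0.21, adjusted p = 0.689). Averaged over each pair on the log2 scale, culture 1 was 8.42-fold above culture 3, the lowest. M6pr, the other mannose-6-phosphate receptor, did not pass, with a log2 fold change of 0.11.

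The untranslated RNAs H19 and Meg3 had too few counts for the filter. H19 had 8, 15 and 2 counts in mock and 0, 22 and 1 counts in NRG1 samples. Igf2, its neighbour in the same imprinted domain and the ligand cleared by Igf2r, had 4, 10 and 1 counts in mock and 3, 12 and 0 counts in NRG1 samples. Both were highest in culture 2 and lowest in culture 3, in either group, apart from H19 in the NRG1 sample of culture 1, which was at 0. Meg3 had 0, 1 and 10 counts in mock and 1, 22 and 23 counts in NRG1 samples. It was higher with NRG1 in cultures 2 and 3, while both samples of culture 1 were under the floor of 3 counts, as was mock sample 2. Fitted without the filter, its log2 fold change was 1.75 (SE 0.63, adjusted p = 0.0362). Without culture 1 it passed the filter and the test, with 1.74 (adjusted p = 0.00976), and it was then the only member that rose. Meg3 was not covered by the fit of all 6 samples.

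A list of 60 other genes known as imprinted, mainly in mouse, gave a view of the surrounding domains. Of these, 46 were in the files, 26 were tested, 4 fell and 2 rose, and the median log2 fold change was -0.15. Among all genes tested, 5.51% fell and 6.31% rose. The genes that fell were Ppp1r9a, Pon2, Zrsr1 and Gatm, and those that rose were Dlk1 and Dio3. Usp29, in the domain of Peg3, had a log2 fold change of 0.08 (95% interval -0.39 to 0.55). Kcnq1 and Phlda2, in the domain of Cdkn1c, were filtered out with at most 7 and 3 counts in any sample. In RefSeq the nearest named genes were Zim1 after Peg3, Slc22a18 after Cdkn1c, and Ddc and Cobl around Grb10. Zim1 and Ddc were filtered out. Slc22a18 and Cobl were lower with NRG1 in each pair but did not pass, with log2 fold changes of -0.26 (adjusted p = 0.526) and -0.83 (adjusted p = 0.0624). Cd81, which encodes a tetraspanin, was the only further gene under 0.05, with a log2 fold change of -0.40 (adjusted p = 0.0357).

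Both genes that rose lie in the domain of Meg3. Dlk1, a membrane protein related to Notch ligands, is the paternally expressed neighbour of Meg3, and Dio3, at the far end of the domain, is a deiodinase that inactivates thyroid hormone. Dlk1 was at 4.81, 38.9 and 36.5 CPM in mock and 21.3, 112 and 100.1 CPM in NRG1 samples (log2 fold change 1.62, SE 0.15, adjusted p = 8e-06). Dio3 had 104, 0 and 7 counts in mock and 151, 167 and 202 counts in NRG1 samples. The NRG1 samples lay between 13.0 and 20.1 CPM, while the mock samples were far apart, since culture 1 was already high and cultures 2 and 3 were at or near 0. The fitted log2 fold change, 2.51 (SE 0.59, adjusted p = 0.00777), was therefore imprecise. It was 5.38 without culture 1, 1.75 without culture 2 (adjusted p = 0.0236) and 1.93 without culture 3. DESeq2 with the block gave 4.54 before and 0.098 after shrinkage (adjusted p = 0.0725), and robust empirical Bayes kept 2.51 at an adjusted p of 0.355. Without the replicate block the adjusted p was 0.501 for Dlk1 and 0.633 for Dio3. Dlk1 and Dio3 were higher with NRG1 in each pair and passed in the fit of all samples, and Meg3 was not tested there.

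**Figure D3:**
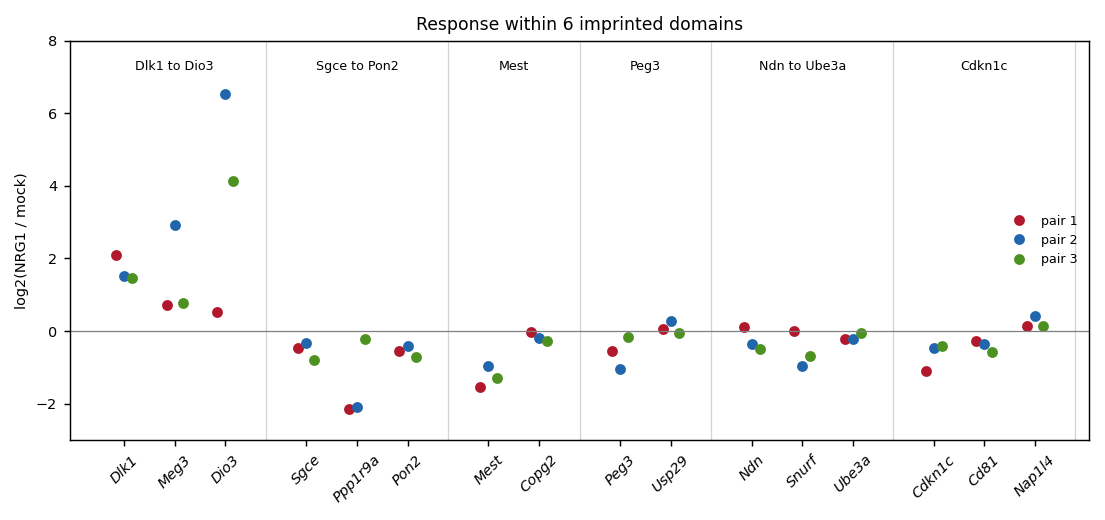
Log2 ratio of NRG1 to mock in each of the 3 pairs (vertical axis, prior count of 2) for genes of 6 imprinted domains, set apart by vertical lines. Points of Dlk1 and Dio3 lie above 0 in all pairs and those of Sgce, Ppp1r9a and Pon2 below 0, and the ratios of Meg3 and Dio3 in pairs with 0 counts, including Meg3 at 0 and 1 counts in culture 1, depend on the prior count.

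The domain of Sgce held 3 tested genes, Sgce among them, and all 3 fell, beside 5.51% of all genes tested. Besides Sgce these were Ppp1r9a, which encodes neurabin, an actin-binding scaffold of protein phosphatase 1, and Pon2, an antioxidant lactonase. Of the other genes listed for the domain, Asb4, Calcr, Tfpi2 and Pon3 were filtered out and Peg10 was not counted. The domain as a whole was not tested. Ppp1r9a was at 9.62, 16.6 and 6.38 CPM in mock and 2.00, 3.71 and 5.49 CPM in NRG1 samples. It was lower in each pair and the groups did not overlap, but in culture 3 the change was small. In the fit it came to -1.39 on the log2 scale (SE 0.33, adjusted p = 0.00803), to -0.96 (adjusted p = 0.0794) without culture 2 and to -2.18 (adjusted p = 1.85e-05) without culture 3. Robust empirical Bayes gave it an adjusted p of 0.0272. Pon2 fell by 0.56 on the log2 scale (SE 0.12, adjusted p = 0.00422), but lost the call without culture 1 (adjusted p = 0.0142) and without culture 3 (0.0808). Among the relatives of Sgce, Sgcb fell by 0.49 on the log2 scale (adjusted p = 0.008), Sgca did not pass, and Sgcd was filtered out. Leaving out any of the 3 cultures took Sgcb over the threshold, with adjusted p between 0.0163 and 0.0756.

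Outside these domains, the imprinted splicing factor gene Zrsr1 fell from a mock mean of 52.5 ± 15.6 CPM (SD, n = 3) to an NRG1 mean of 28.1 ± 6.1 CPM (SD, n = 3). The change, -0.88 on the log2 scale (SE 0.13, adjusted p = 0.000343), passed in all 9 alternatives with the block. Gatm, an enzyme of creatine synthesis, fell by 0.90 on the log2 scale (SE 0.18, adjusted p = 0.00275), and without culture 3 it was at an adjusted p of 0.0661. Without the replicate block none of the other imprinted genes passed.

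The relatives of the members in protein family were 15 genes, of which 12 were tested, 2 fell and none rose, beside 5.51% and 6.31% of all genes tested. Besides Sgcb the gene that fell was Ephx1, an epoxide hydrolase that belongs like Mest to the α/β-hydrolase fold proteins. It fell by 1.37 on the log2 scale (SE 0.26, adjusted p = 0.00209), and robust empirical Bayes gave an adjusted p of 0.015. Without culture 1 it was -2.03 and without culture 3 it was -0.92, both past the threshold. Abhd11, a mitochondrial member of the same fold, had a mean of 14.2 ± 0.7 CPM (SD, n = 3) in the mock group and of 21.1 ± 1.4 CPM (SD, n = 3) with NRG1, and a log2 fold change of 0.57 (adjusted p = 0.0147), over the threshold. Over the 6 samples, the genes whose log2 CPM followed Mest most closely were Zkscan5, Tom1l1 and Fam76a, with Pearson r of 0.997, 0.995 and 0.994. Their log2 fold changes of -0.33, -0.70 and -0.31 were smaller than that of Mest. The 6 samples share 3 cultures, so these values are descriptions.

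In 8 of the 10 members the range between cultures was larger than the mean change within pairs. The share of all genes for which this holds was not determined, so it is no trait of the members. Averaged over each pair, the highest culture was 9.52-fold above the lowest for Plagl1, 8.42-fold for Igf2r, 8.17-fold for H19, 4.93-fold for Meg3 and 4.82-fold for Cdkn1c. The values of Plagl1, H19 and Meg3 rest on very few counts in the low cultures and depend on the prior count of 2. Plagl1, Igf2r and Grb10 were highest in culture 1, although the range of Grb10 was only 1.18-fold, whereas Cdkn1c, Ndn, Peg3, Mest and Meg3 were lowest there. For Ndn and Peg3 the range was 1.98-fold and 1.53-fold. The remaining members were Mest and Sgce, for which the cultures differed by 1.38-fold and 1.15-fold, against falls of 2.40-fold and 1.45-fold with NRG1. Of the 10 fibroblast markers, 8 were higher in both samples of culture 1 than in the other 4. Fbln1 was not, and Col1a2, with at most 2 counts in any sample, could not show a split. Pdgfra was at 870 and 827 CPM in culture 1 and between 0.15 and 1.61 CPM in the other 4 samples. A list of 5 smooth muscle and pericyte markers also split by culture. Its summed level was 1908 and 1936 CPM in the mock and NRG1 samples of culture 1 and 5.51 to 12.4 CPM in the other 4. Most of the sum in culture 1 was Acta2, at 1813 and 1845 CPM. Myh11, Rgs5 and Cspg4 were also higher in both samples of culture 1, while Des, at most 0.59 CPM in any sample, was not. The part of either marker list in the levels of Igf2r and Plagl1 was not tested. Between mock and NRG1 none of the 6 tested fibroblast markers passed, although 1 of the 6 had an unadjusted p under 0.05, and DESeq2 called none. That marker was Col3a1, a fibrillar collagen, with a log2 fold change of -0.98 (adjusted p = 0.0118) and log2 ratios of 0.05, -1.59 and -1.38 in cultures 1, 2 and 3. It passed, as a fall, when culture 1 was left out. The log2 ratios of Mest in cultures 2 and 3 were -0.97 and -1.28, and the part of Col3a1 or of fibroblasts in the fall of Mest was not tested.

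**Figure D4:**
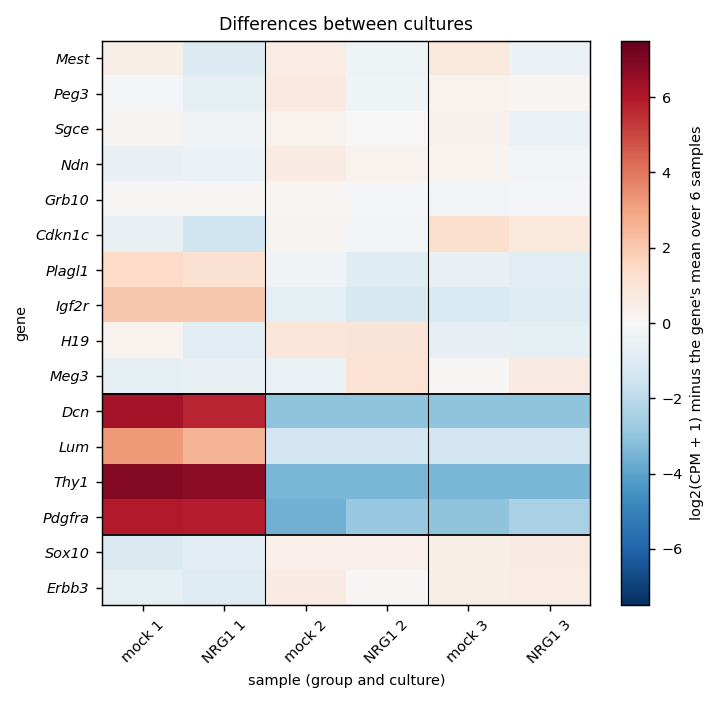
Heat map of log2(CPM + 1) minus the mean of each gene over the 6 samples (colour), for the 10 genes, 4 fibroblast markers chosen after their values were seen because they split by culture (Dcn, Lum, Thy1, Pdgfra) and 2 Schwann cell genes (Sox10, Erbb3), with samples ordered by culture. Igf2r and Plagl1 are high in culture 1 together with these fibroblast markers, and Mest is lower in the NRG1 column of each culture. Smooth muscle and pericyte markers, whose summed level was also highest in culture 1, are not shown.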

How the data were processed

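RNA of 3 mock and 3 NRG1 samples was analysed, with group and replicate number taken from the labels. Reads were mapped by the authors with TopHat 2.0.10 to the rn5 assembly, and the raw htseq counts over RefSeq genes were deposited. The strand setting is not given in the sources used here, so reads of overlapping genes cannot be told apart. Summary lines were left out, and between 47.0% and 49.9% of the alignments were assigned to a gene.

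Counts were filtered with filterByExpr (minimum count 10), normalized with TMM and fitted with edgeR 4.0.16 in R 4.3.3, by quasi-likelihood, with group and, following the study's paired design, replicate as factors. Benjamini-Hochberg adjustment covered 9740 genes. CPM are TMM-scaled. Ratios of single pairs used a prior count of 2. Each SE (standard error) was obtained from the log2 fold change and its F statistic. Deviations from group means correlated across genes with r of 0.91, 0.67 and 0.81 for samples of replicates 1, 2 and 3. Between mock 2 and NRG1 3 and between mock 3 and NRG1 2 the r was 0.51, and mismatches with replicate 1 were negative. The replicates are independent cell preparations. No pair of samples was within sampling noise. Scripts were tested on simulated data. Alternatives were no block, DESeq2 1.42.0, RLE, other filters, robust empirical Bayes, other thresholds and leaving out each replicate. Floors cover counting error only. The members and lists were chosen with earlier results of these data known. Named genes were all 10 members, relatives, the 3 genes most correlated with Mest, and imprinted genes with an adjusted p of at most 0.05. Some genes near a member or in its domain and some cell type markers were also named. Tfpi2, Htr2a and Slc38a4 were added after their values were seen. Gene positions and promoter windows are from RefSeq on GRCr8, not on rn5.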

Additional observations from a re-analysis of the deposited data

How the results depend on the processing

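In edgeR without the replicate block, 0 of all genes, 0 of the 10 imprinted growth genes and 0 of the other imprinted genes passed an adjusted p of 0.01 (smallest adjusted p 0.139), while 1334 genes and 2 of the 7 tested members had an unadjusted p under 0.05. DESeq2 with the block, with shrunken fold changes or not, called 1 member, Mest. Placing the 2-fold threshold inside the test left 0 members past 2-fold in edgeR. An adjusted p of at most 0.05 called 2260 of all genes. Leaving out each replicate gave from 661 to 1191 of all genes, from 2 to 3 members, from 1 to 2 members past 2-fold and from 4 to 5 other imprinted genes. The median log2 fold change of the tested members was -0.29 with shrunken fold changes, -0.57 with no filter and from -0.57 to -0.42 with a replicate left out. The count of fibroblast markers that passed was 1 (Col3a1) with RLE, with no filter, with at least 10 counts in every sample and at an adjusted p of 0.05, and from 0 to 1 with a replicate left out. With a replicate left out, Grb10 ranged from -0.073 to 0.076 and Igf2r from -0.19 to 0.10, both reversed without replicate 2, and Igf2r was 0.0013 without the block. For the other changes the cause was not tested. Genes under the floor of 0.19 to 0.44 CPM, such as H19, Meg3 and Plagl1 in some samples, were limited by depth.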

Other observations

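Several other imprinted genes, chosen after their values were seen, were counted mainly in culture 1. Tfpi2, an inhibitor of serine proteases from the domain of Sgce, had 267, 1 and 2 counts in mock samples 1, 2 and 3 and 329, 2 and 3 counts in NRG1 samples. Htr2a, a serotonin receptor, had 186 counts in mock and 161 in NRG1 sample 1 and 0 counts in the other 4 samples. Slc38a4, an amino acid transporter, had 24 counts in each sample of culture 1 and 0 in the other 4. Gatm went the other way, with 13 and 3 counts in culture 1 and between 220 and 547 counts in the other 4 samples.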
